A study of Homo sapiens with 5 samples.

Results

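Small nucleolar RNAs (snoRNAs) guide chemical modification of ribosomal RNA, and most human snoRNAs are cut out of the introns of host genes. The genes described here are spliced host genes whose exons encode no known protein. Many start with a terminal oligopyrimidine (TOP) tract, a C followed by a run of C and T, which is the same start that ribosomal protein mRNAs carry. mTORC1 and the RNA-binding protein LARP1 control the translation and stability of TOP transcripts, and the spliced RNAs of several hosts are short-lived because translation of their short reading frames exposes them to nonsense-mediated decay (NMD). Box C/D snoRNAs guide 2'-O-methylation and box H/ACA snoRNAs guide pseudouridylation.

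The host genes were chosen by symbol, from a list of 10 spliced non-coding host genes. The rule itself uses no measured value, but the list was chosen with earlier results of these data known. Of the 27477 genes in the authors' deposited table, 9 carry one of these symbols: SNHG1, SNHG5, SNHG7, SNHG8, SNHG12, SNHG15, SNHG16, GAS5 and ZFAS1. SNHG6 is not analysed here. The table compares 2 RNA-seq libraries of gefitinib-tolerant PC9 cells with 3 libraries of parental PC9 cells. PC9 is an established human lung adenocarcinoma line with an activating EGFR mutation, and gefitinib inhibits the EGFR kinase. Drug-tolerant cells were kept in 50 nM gefitinib for 6 days and then in growth media for 3 days. Parental cells are the same line, for which the labels give no drug step of their own. In the authors' deposited table the epithelial genes KRT8, KRT18 and EPCAM had mean levels of 35758, 20059 and 8755, where a mean level is the average over the 5 libraries of reads scaled by DESeq2's size factors. Depth was about 14.2 to 21.4 M counted reads per library, and whether libraries of a group came from separate cultures is not stated, so p-values measure only the spread between these libraries.

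Letters at the annotated starts are shown first, because the TOP tract is the feature that gives the group its name. The RefSeq (GRCh38.p14) start sequences used here cover 8 of the 9 genes, and SNHG15 is the one not covered. The windows below run from 45 bases before the start to 35 bases from it, on the gene's strand. Capitals mark the C and pyrimidine run nearest to the start within 10 bases, and the letters TATAA where they lie 21 to 40 bases before it.

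SNHG5, chr6:85678699-85678778, minus strand: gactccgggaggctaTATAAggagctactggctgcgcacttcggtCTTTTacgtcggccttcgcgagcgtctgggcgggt
SNHG8, chr4:118278717-118278796, plus strand: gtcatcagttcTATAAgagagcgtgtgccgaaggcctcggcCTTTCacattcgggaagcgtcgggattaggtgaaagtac
SNHG16, chr17:76557719-76557798, plus strand: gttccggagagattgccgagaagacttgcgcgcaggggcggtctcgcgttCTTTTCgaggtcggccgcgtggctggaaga
SNHG7, chr9:136728150-136728229, minus strand: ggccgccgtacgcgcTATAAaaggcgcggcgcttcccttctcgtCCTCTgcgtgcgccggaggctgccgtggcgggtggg
ZFAS1, chr20:49278597-49278676, plus strand: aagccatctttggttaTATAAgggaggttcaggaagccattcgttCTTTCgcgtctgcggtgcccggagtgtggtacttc
SNHG12, chr1:28581839-28581918, minus strand: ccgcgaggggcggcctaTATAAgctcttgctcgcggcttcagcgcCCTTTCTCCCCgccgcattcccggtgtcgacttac
SNHG1, chr11:62855851-62855930, minus strand: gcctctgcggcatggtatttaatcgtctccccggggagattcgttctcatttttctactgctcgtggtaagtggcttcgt

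A C followed by at least 4 pyrimidines lay exactly at the RefSeq start of SNHG5, SNHG12 and ZFAS1, which is 3 of 8, against 4.07% of all 35116 RefSeq starts. Within 10 bases of the start, on the gene's strand, the same run was found in 6 of 8, against 33.5% of all starts. The longest run, 11 bases, was in SNHG12. TATAA lay on the gene's strand 21 to 40 bases before the start in 5 of 8, its first letter 28 to 34 bases upstream, against 3.77% of all starts. SNHG1 and GAS5 had neither at their RefSeq starts under these rules, and the GAS5 window is not printed because its annotated TOP starts, shown next, lie elsewhere.

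Annotated transcripts were read as well, because hosts have several starts. In GENCODE release 29 (GRCh38), 20 of the 131 transcripts of the 9 genes (15.3%) began with a C and at least 4 pyrimidines, against 2.41% of all 206694 transcripts. The 20 came from 7 genes, all but SNHG7 and SNHG15. GAS5, whose RefSeq start lies upstream of the others, had 6 such transcripts, and SNHG16 had 2. Their first 30 bases are shown because the first 11 are identical, with the pyrimidine run in capitals.

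GAS5, first base at position 173867989 of chromosome 1, minus strand: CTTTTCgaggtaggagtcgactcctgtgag
SNHG16, first base at position 76557769 of chromosome 17, plus strand: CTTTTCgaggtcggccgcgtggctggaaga

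In the drug-tolerant libraries 8 of the 9 host genes had a log2 fold change below 0 in the authors' deposited table, and none was called. Their median was -0.39, which is 0.764-fold, against a median of -0.02 over the 15223 genes tested. A gene is called when its adjusted p (DESeq2 Wald test, Benjamini-Hochberg over all genes tested) is under 0.05. Of the 9 hosts, 0 were called lower in the authors' deposited table, where 0.289% of all genes tested were, and 0 were called higher, where 0.263% were. At an unadjusted p under 0.05 the authors' deposited table has 3 hosts lower (SNHG5, SNHG8 and SNHG16) and 0 higher, against 7.1% lower and 3.7% higher over all genes tested. Values below 0 made up 51.6% of all genes tested.

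The table limits what these values can show. At their standard errors of 0.22 to 0.37 in the authors' deposited table, the hosts would have needed a log2 fold change of 0.80 to 1.34 in size to reach 3.64, the smallest Wald score among called genes. The deposited fold changes are moderated towards 0: the 409 genes with reads in 1 drug-tolerant library only, the deeper one, had a median log2 fold change of only 0.10 in the authors' deposited table. It holds no values per library for these genes, so the group levels below are estimates from the mean level and the fold change, and no spread can be given for them.

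**Figure D1:**
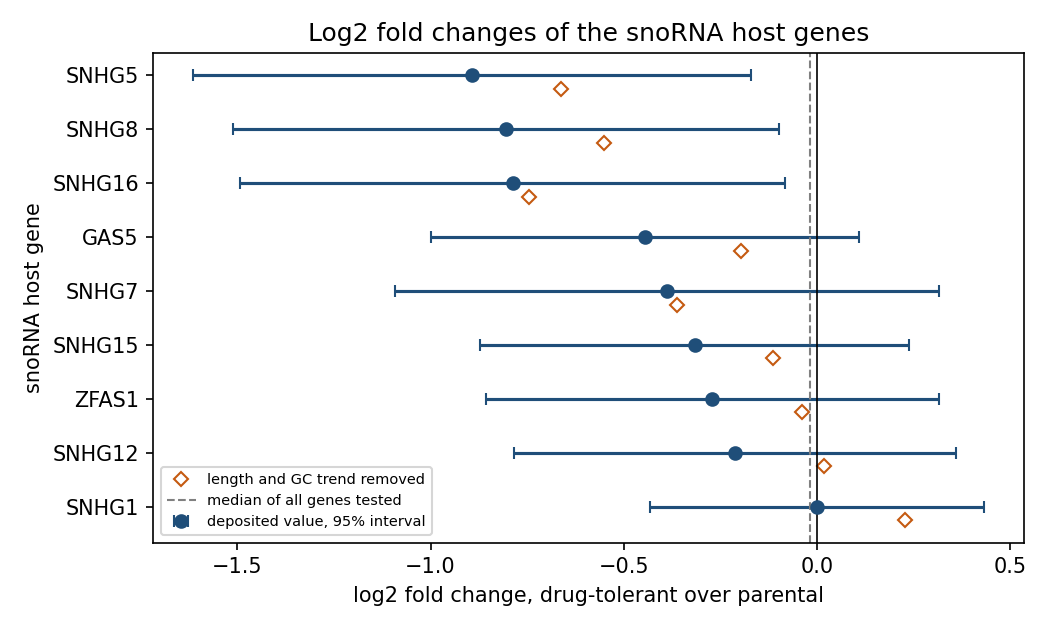
Log2 fold change of each host gene, drug-tolerant over parental, in the authors' deposited table (filled points, with bars for the 95% interval from the standard error), and with the dependence on transcript length and GC content removed (open diamonds). The intervals of SNHG5, SNHG8 and SNHG16 lie below 0, the other 6 hold 0, and SNHG1 sits at 0.00.

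Among hosts of box C/D snoRNAs, GAS5 and SNHG1 carry the most. GAS5 (ENSG00000234741; chromosome 1, 173863900 to 173868882, minus strand, GRCh38) was named for its accumulation in growth-arrested cells and spans 11 RefSeq snoRNA genes, 10 of them box C/D. Its estimated level was 2036 in drug-tolerant and 2771 in parental cells. The authors' deposited table gives GAS5 a log2 fold change of -0.44 ± 0.28 (SE), a p of 0.12 and an adjusted p of 0.51 (DESeq2). The 95% interval ran from -0.999 to 0.11 on the log2 scale, which is 0.500-fold to 1.08-fold.

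SNHG1 (ENSG00000255717; chromosome 11, 62851988 to 62855914, minus strand), once known as the U22 host gene, spans 9 RefSeq snoRNA genes, 8 of them named as box C/D. Its fold change was the nearest to 0 of the 9, so the level estimated from it was 1446 in both drug-tolerant and parental cells. In the authors' deposited table its log2 fold change was 0.00 ± 0.22 with an adjusted p of 0.9996 (DESeq2). Its standard error was the smallest of the 9, and its 95% interval of -0.43 to 0.43 is 0.741-fold to 1.35-fold.

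SNHG16 (ENSG00000163597; chromosome 17, 76557766 to 76565348, plus strand) hosts the 3 SNORD1 genes and had the highest mean level of the 9, 2536. Its estimated level was 1767 in drug-tolerant and 3049 in parental cells, 0.579-fold. The authors' deposited table gives -0.79 ± 0.36, with a p of 0.029 and an adjusted p of 0.44 (DESeq2), and the 95% interval was -1.49 to -0.08. Only 3.17% of all genes tested had a lower log2 fold change than SNHG16.

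SNHG5 (ENSG00000203875; chromosome 6, 85660950 to 85678748, minus strand), host of SNORD50A and SNORD50B, had the lowest value of the 9. Its estimated level was 202 in drug-tolerant and 375 in parental cells, 0.539-fold. In the authors' deposited table its log2 fold change was -0.89 ± 0.37, with a p of 0.015 and an adjusted p of 0.39 (DESeq2). The 95% interval was -1.61 to -0.17, and 1.63% of all genes tested lay lower.

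ZFAS1 (ENSG00000177410; chromosome 20, 49278178 to 49295738, plus strand) is antisense to the start of ZNFX1, and it hosts the 3 SNORD12 genes. Its estimated level was 197 in drug-tolerant and 237 in parental cells. The authors' deposited table gives -0.27 ± 0.30 and an adjusted p of 0.66 (DESeq2), with a 95% interval of -0.86 to 0.32.

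The hosts of box H/ACA snoRNAs covered a similar range. SNHG8 (ENSG00000269893; chromosome 4, 118278709 to 118279823, plus strand), host of SNORA24, was estimated at 181 in drug-tolerant and 317 in parental cells. Its log2 fold change in the authors' deposited table was -0.80 ± 0.36, with a p of 0.026 and an adjusted p of 0.44 (DESeq2), and the 95% interval was -1.51 to -0.10. With SNHG5 and SNHG16 it forms the 3 lowest hosts.

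SNHG7 (ENSG00000233016; chromosome 9, 136721366 to 136728184, minus strand), host of SNORA17A and SNORA17B, was estimated at 567 in drug-tolerant and 742 in parental cells and was at -0.39 ± 0.36 in the authors' deposited table. SNHG15 (ENSG00000232956; chromosome 7, 44983023 to 44986961, minus strand), host of SNORA9, was estimated at 568 in drug-tolerant and 708 in parental cells and was at -0.32 ± 0.28 in the authors' deposited table. Their adjusted p-values (DESeq2) were 0.61 for SNHG7 and 0.60 for SNHG15 in the authors' deposited table. SNHG12 (ENSG00000197989; chromosome 1, 28578538 to 28583132, minus strand) spans 3 box H/ACA genes and the box C/D gene SNORD99. It was estimated at 159 in drug-tolerant and 185 in parental cells, and the authors' deposited table gives -0.21 ± 0.29 with an adjusted p of 0.73 (DESeq2).

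The intervals of all 9 hosts share values, from -0.43 to -0.17, and the difference between hosts cannot be tested without values per library. Across the 9 hosts Spearman's correlation of the log2 fold change with the mean level was -0.18, and with the number of RefSeq snoRNA genes inside it was 0.46. These describe 9 genes measured in the same 5 libraries.

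**Figure D2:**
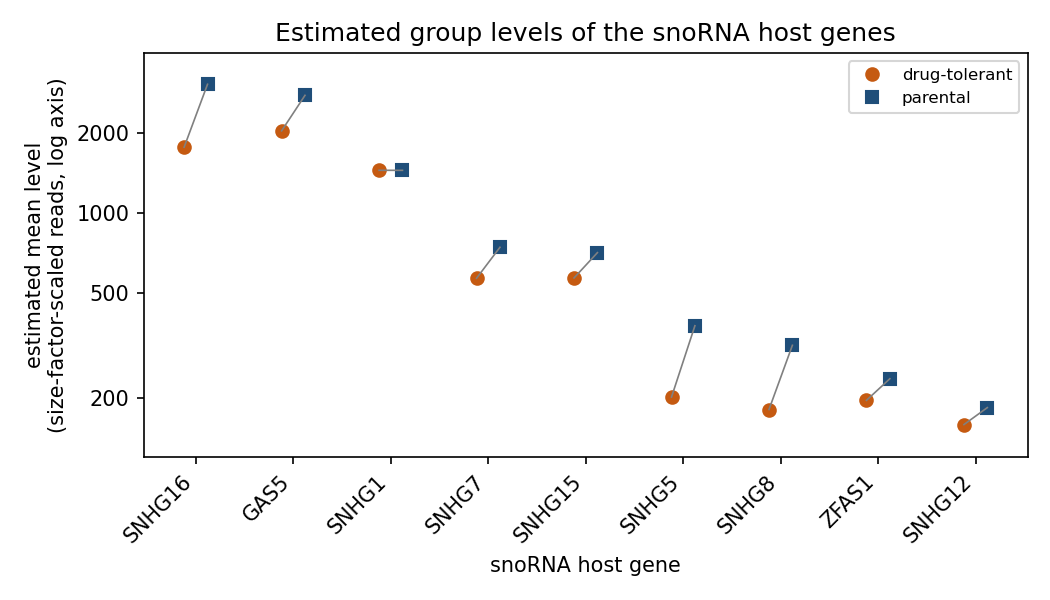
Estimated mean level of each host gene in drug-tolerant (circles) and parental (squares) cells, in size-factor-scaled reads on a log axis, from the deposited mean level and fold change. The drug-tolerant estimate is below the parental one for all but SNHG1, where both are 1446.

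Per kilobase of median transcript length, the mean level of the authors' deposited table was highest for GAS5, at 4138. SNHG1 followed at 1885 and SNHG16 at 1303, while SNHG15 (684), SNHG8 (559), SNHG5 (407), SNHG7 (311), ZFAS1 (302) and SNHG12 (231) were lower on this scale. The spread of levels over libraries is not known, so it cannot be said which neighbours in this order differ. The order also rests on the median annotated transcript. For SNHG15 that is 953 bases and the longest 3116, and for SNHG16 1947 and 3607. An order by the longest transcript was not worked out.

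Across all genes, fold changes moved with transcript length. Median transcript length and the log2 fold change in the authors' deposited table had a Spearman correlation of 0.45 over 15160 genes, a value across genes, which are not independent replicates. The hosts are short, with median lengths from 470 bases for SNHG8 to 2157 for SNHG7 and a median of 754. Among the 9 hosts alone the Spearman correlation with length was 0.25, and Pearson's with log10 length was -0.03. When these genes were split by length into 10 groups of 1516, median log2 fold changes were -0.29 in the group of median length 602 and -0.34 in that of 1002, against 0.40 in the longest group, of median length 6931.

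With the trend with length and GC content removed over all genes, the median of the hosts was -0.20 and that of all genes -0.05. The removal was not complete. Medians stayed at -0.05, -0.15 and -0.13 in the groups of median length 602, 1002 and 1434, against 0.02 in the longest group. Of the 9 hosts, 7 remained below 0, where 55.3% of all genes were. SNHG16, one of the 2 longest hosts at 1947 bases, had the lowest value, -0.75, against -0.79 before. SNHG5 was then at -0.66 and SNHG8 at -0.55, while ZFAS1 was at -0.04, SNHG12 at 0.02 and SNHG1 at 0.23. No host was called after the removal, with adjusted p-values (from the adjusted Wald scores) of 0.58 to 0.996. From the same adjusted DESeq2 scores, unadjusted p-values were 0.040 for SNHG16, 0.088 for SNHG5 and 0.14 for SNHG8. SNHG5 and SNHG8 thus no longer lay under 0.05. The share of all genes under 0.05 after the removal was not counted, so the value of SNHG16 cannot be set against it. The part of length in the deposited values was not tested beyond this removal.

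**Figure D3:**
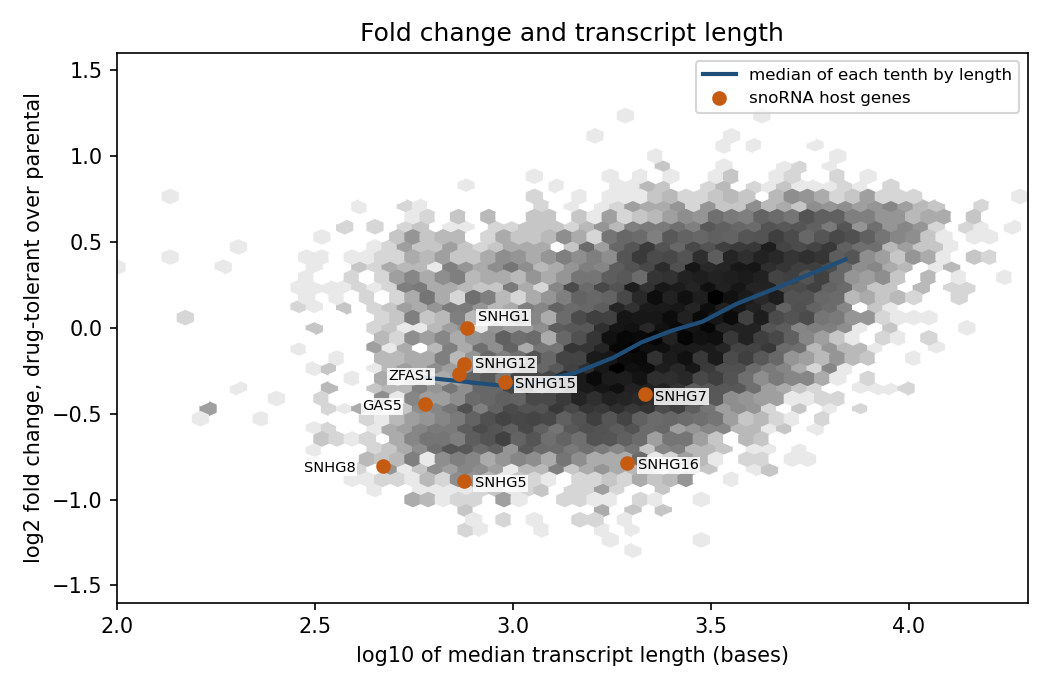
Log2 fold change in the authors' deposited table against the log10 of median transcript length in bases, for all genes tested with a length (grey, darker where more genes lie), with the median of each of 10 groups by length (line) and the host genes (points). SNHG1 lies above the line, SNHG12, ZFAS1 and SNHG15 lie near it, and SNHG5, SNHG16 and SNHG7 lie below it. GAS5 and SNHG8 are shorter than the length at which the line starts and lie below its level there.

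The same direction was seen in other non-coding hosts. Of 24 further symbols listed, 13 have a row and 10 were tested, with 9 values below 0 in the authors' deposited table and a median of -0.54. None was called by DESeq2, and 1 was lower at an unadjusted p under 0.05, where 7.1% of all genes tested were. It was LRRC75A-AS1 (now SNHG29), at -0.67 ± 0.33 with a p of 0.043 (DESeq2) in the authors' deposited table. C6orf48 (now SNHG32) was at -0.68 ± 0.37, SNHG18 at -0.66 ± 0.34 and DANCR at -0.61 ± 0.38 in the authors' deposited table. SNHG20 was the one above 0, at 0.14 ± 0.39 in the authors' deposited table.

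Coding genes with a TOP start had lower medians than the hosts. All 79 cytosolic ribosomal protein genes listed were tested. In the authors' deposited table they had a median of -0.77, 78 values below 0, 0 called by DESeq2 and 61 lower at an unadjusted p under 0.05. Of all genes tested, 7.1% were lower at that cutoff. The authors' deposited table has RPLP2 of the large subunit at -0.99 ± 0.37 and RPS18 of the small subunit at -0.92 ± 0.34, and their processed pseudogenes may take or give reads. The 17 other coding TOP genes tested had a median of -0.51 with 16 below 0, 0 called and 5 lower at an unadjusted p under 0.05, among them TPT1, which encodes a conserved growth-linked protein and itself hosts a snoRNA, at -0.95 ± 0.35 in the authors' deposited table. Once the trend with length and GC was removed, medians were -0.56 for ribosomal proteins, -0.43 for other coding TOP genes and -0.37 for other non-coding hosts, against -0.20 for the 9 hosts.

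Among genes covered by the RefSeq start sequences used here, a C and at least 4 pyrimidines lay at the start of 43 of 63 ribosomal protein genes. The same held for 9 of 11 other coding TOP genes and 6 of 21 coding snoRNA hosts. The coding genes that host snoRNAs had a median of 0.22 over 23 tested in the authors' deposited table, with 9 below 0 and 0 called. Once the trend with length and GC was removed, their median was 0.01, with 11 of 23 below 0. At an unadjusted p under 0.05 the authors' deposited table has 1 of them lower, TPT1, and 2 higher, EIF4G2 at 0.39 ± 0.20 and WDR43, a ribosome assembly factor, at 0.48 ± 0.24. Over all genes tested, 7.1% were lower and 3.7% higher at that cutoff. Of these 23 genes, 4 also stand in the TOP list. Over all genes tested that matched a RefSeq start, the 524 with a C and at least 4 pyrimidines at the start had a median of -0.18 and the 9485 others -0.01, at median lengths of 2319 and 2581 bases. Once the trend with length and GC was removed, these medians were -0.18 and -0.06. The 524 include the ribosomal protein and other listed genes with such a start. The differences between these lists were not tested.

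**Figure D4:**
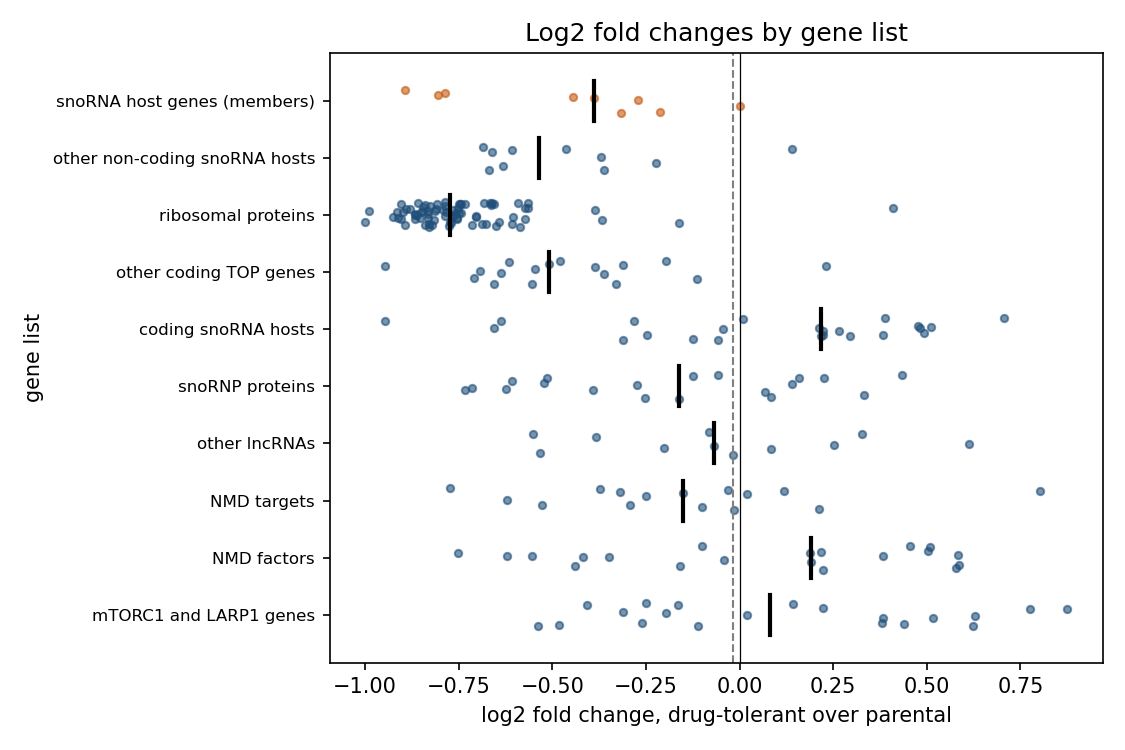
Log2 fold changes in the authors' deposited table, drug-tolerant over parental, by gene list, with 1 point for each gene tested, a black bar at the list's median, a dashed line at the median of all genes tested and a thin line at 0. Ribosomal proteins (median -0.77), other non-coding hosts (-0.54) and other coding TOP genes (-0.51) lie further below 0 than the host genes (-0.39), while coding snoRNA hosts have a median of 0.22, which was 0.01 once the trend with length and GC was removed.

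The proteins that bind the guides and the pathways that act on TOP and NMD transcripts were read from lists. These lists were chosen with earlier results of these data known. None of these genes was called. In the authors' deposited table the 19 snoRNP proteins tested had a median of -0.16. At an unadjusted p under 0.05 (DESeq2) 3 were lower, where 7.1% of all genes tested were. These were the methyltransferase FBL (-0.73 ± 0.35) of box C/D particles and the assembly factors PIH1D1 (-0.72 ± 0.31) and ZNHIT3 (-0.61 ± 0.31). Their transcripts are short, from 926 bases for ZNHIT3 to 1160 for FBL. Once the trend with length and GC was removed, FBL, PIH1D1 and ZNHIT3 were at -0.56, -0.53 and -0.40, and the list median was -0.13. NMD factors had a median of 0.19 over 20 genes in the authors' deposited table, with UPF1, the central helicase of NMD, at 0.58 ± 0.27, SMG5 at 0.46 ± 0.21 and UPF3B at -0.75 ± 0.31. The median of the NMD factors turned to -0.05, with 12 of 20 below 0, once the trend with length and GC was removed, and was 0.01 with the longest transcript in place of the median one. Coding NMD targets had a median of -0.15 over 15 genes, with GADD45A at -0.77 ± 0.32 and ATF3 at 0.80 ± 0.41 in the authors' deposited table.

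In the authors' deposited table the 20 mTORC1 and LARP1 pathway genes had a median of 0.08. At an unadjusted p under 0.05 (DESeq2) 4 were higher, where 3.7% of all genes tested were. These were MTOR itself (0.88 ± 0.37), its partner RPTOR (0.63 ± 0.26), the scaffold EIF4G1 (0.78 ± 0.34) and TSC2, which restrains mTORC1 (0.62 ± 0.29). These 4 transcripts are long, from 5129 bases for EIF4G1 to 6347 for MTOR, and the list median was 0.01 once the trend with length and GC was removed. Long non-coding RNAs that are not named hosts had a median of -0.07 over 11 tested in the authors' deposited table, with 0 called and 0 at an unadjusted p under 0.05 in either direction, and CYTOR at -0.53 ± 0.32 and MALAT1 at 0.61 ± 0.38. With the trend removed their median was -0.17, with 9 of 11 below 0, beside -0.20 and 7 of 9 below 0 for the hosts. By the longest transcript it was -0.30, beside -0.32 for the hosts.

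Genes that start near a host or overlap it on the opposite strand were compared with it. ZNFX1, a helicase gene that starts 248 bases from ZFAS1 on the opposite strand and overlaps it, was at 0.52 ± 0.31 in the authors' deposited table, where ZFAS1 was at -0.27 ± 0.30. ZBTB37, which overlaps the start of GAS5 on the opposite strand, was at 0.46 ± 0.41 in the authors' deposited table. SLC3A2, an amino acid transporter subunit whose start lies 188 bases from that of SNHG1, was at -0.11 ± 0.28 in the authors' deposited table. TRNAU1AP, which overlaps SNHG12 on the opposite strand but starts 30047 bases away, was at -0.82 ± 0.34 in the authors' deposited table, lower than SNHG12 at -0.21 ± 0.29. None of the 4 was called by DESeq2. The library kit marks strand, per the labels, but the strand setting of the counting is not given in the sources used here, so reads of overlapping partners may be mixed.

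Values per library could be had only for rows with few reads, where the mean level resolves into whole reads in exactly 1 way. The libraries so recovered are named drug-tolerant a and b and parental a, b and c, and they cannot be matched to replicate numbers. Among the non-coding hosts outside the 9, SNHG9 had 10 and 6 reads in drug-tolerant a and b, against 3, 17 and 17 in parental a, b and c. SNHG21 had 9 and 2 reads in the drug-tolerant libraries, against 4, 9 and 14 in parental a, b and c. SNHG25 had 1 and 0 reads in the drug-tolerant libraries, against 0, 3 and 5 in parental a, b and c. MEG8 had 2 reads in drug-tolerant a and 0 in the other libraries. In read counts of SNHG9, SNHG21 and SNHG25, parental a lay at or below the higher drug-tolerant library, and parental b and c at or above both.

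Summed over SNHG9, SNHG21 and SNHG25 and divided by the size factor, the drug-tolerant libraries had 17.6 and 10.1 reads, against 5.88, 28.5 and 37.5 in parental a, b and c. The groups overlap, and parental a was the lowest of the 5 libraries. GAS5-AS1, an antisense gene at the 3' end of GAS5, had 7 and 8 reads in the drug-tolerant libraries, against 13, 3 and 4 in parental a, b and c, so there parental a was the highest. These are counts of few reads and carry counting error. For the 9 hosts the mean levels are too high to resolve, so their values without parental a, or without parental b and c, could not be computed.

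Several snoRNA rows were higher in parental a than in parental b and c. The libraries are mRNA libraries, per the labels, so reads in these rows are not taken as levels of the snoRNAs. Whether such reads come from the snoRNAs or from RNA of the genes around them was not tested. The authors' deposited table has rows for 4 of the 37 snoRNA symbols listed as lying in the hosts, and for 188 annotated snoRNA genes in all. SNORD12C, in ZFAS1, had 10 and 8 reads in the drug-tolerant libraries, against 10, 0 and 0 in parental a, b and c. SNORD12B, also in ZFAS1, had 13 and 11 reads in the drug-tolerant libraries, against 28, 8 and 6 in parental a, b and c. SNORD99, in SNHG12, had 8 and 2 reads in the drug-tolerant libraries, against 3, 5 and 2 in parental a, b and c, so parental b was above parental a there, and SNORD1B had 1 read each in parental a and b and 0 elsewhere.

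Over 175 annotated snoRNA genes with a mean level under 10, size-factor-scaled reads summed to 415 and 467 in the drug-tolerant libraries, against 439, 174 and 212 in parental a, b and c. Parental a thus lay between the drug-tolerant libraries, and parental b and c below all 3. The split was not particular to snoRNA rows: over 3221 long non-coding RNA genes with a mean under 10 and a median transcript under 1 kb, scaled reads summed to 8149 and 7876 in the drug-tolerant libraries, against 8708, 6089 and 6105 in parental a, b and c. The ratio of reads of transcripts over 4 kb to reads of transcripts under 2 kb, over all genes with a mean under 10, was 0.103 and 0.0962 in the drug-tolerant libraries, against 0.108, 0.0713 and 0.0710 in parental a, b and c. The part of this split of the parental libraries in the values of the 9 hosts was not tested. Fewer cells with a transcript and less transcript per cell cannot be told apart in bulk RNA.

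**Figure D5:**
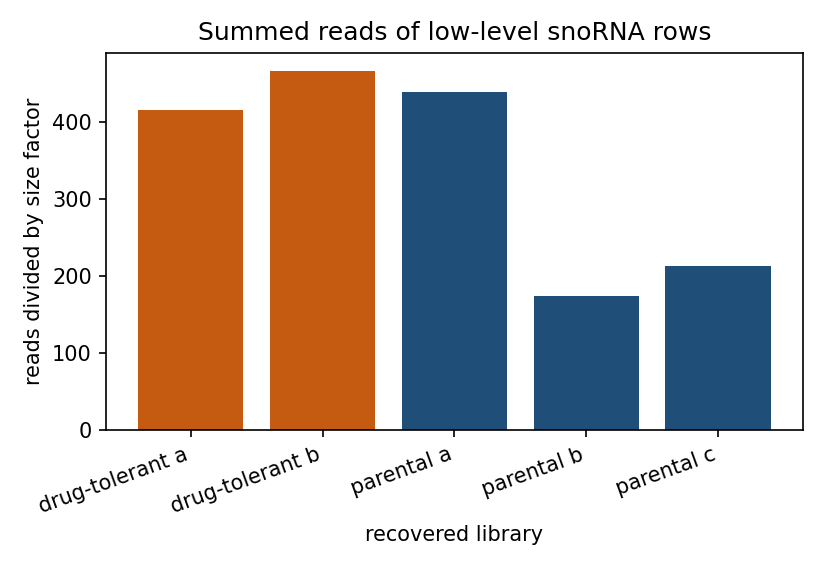
Reads divided by the library's size factor, summed over 175 snoRNA genes with a mean level under 10, in each recovered library (bars from 0). Drug-tolerant a and b stand at 415 and 467 and parental a at 439, while parental b and c stand at 174 and 212. The libraries are mRNA libraries, and whether these reads come from the snoRNAs themselves was not tested.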

How the data were processed

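RNA-seq of PC9 cells was deposited as 1 table of 27477 genes for 2 drug-tolerant and 3 parental libraries. Per the labels' protocols, TriZol RNA went into stranded mRNA libraries. FastQC, STAR, DESeq2 and the build hg38 were used, per the submitters' processing notes, while for versions, counting tool and annotation nothing is given in the sources used here. Per gene, the authors deposited 1 signal, its mean level, which averages reads over size factor across libraries. The authors also deposited a log2 fold change with its standard error, a Wald score that is the ratio of these, a p-value and an adjusted p-value. The deposited adjusted p-values equal a Benjamini-Hochberg adjustment over 15223 genes to within 2.0e-05.

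The authors' DESeq2 test is the only test, since the table holds no values per library. Means under 10 resolve into whole reads: all 12705 such genes had exactly 1 solution within 1.5e-09, and 2 rows between 10 and 13 were resolved within 6.0e-09. Reads found in 2 libraries only raised the fold change and in 3 only lowered it, which matches the group sizes, so positive values are higher in drug-tolerant cells. Scaled reads gave the deposited sign in 98.9% of these genes. Transcript lengths and GC are medians over basic transcripts of GENCODE 29, whose IDs matched 27293 of the genes. The trend was a cubic in log10 length and a quadratic in GC, fitted over 15160 genes, and it and the read recovery were tested on simulated data. Python 3.11.15, numpy 2.4.6, pandas 2.3.3 and scipy 1.17.1 were used. The members and the 10 comparison lists were chosen with earlier results of these data known. Every host is named, and from each other list the called genes and the 4 of lowest adjusted p at a mean of 10 or more, of which some are printed, with SNHG20 and the low rows added after their values were seen. One listed host is not reported here.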

Additional observations from a re-analysis of the deposited data

How the results depend on the processing

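None of the 9 hosts was called, lower or higher, under any alternative run. These were an adjusted p under 0.01, a log2 fold change of at least 1, adjustment over genes with a mean of at least 10 or 50 or over all genes with a p-value, a centred and scaled Wald score, and removal of the trend with length and GC by median or, added after seeing the data, by longest transcript. The adjusted p under 0.01 and the fold change cutoff only tighten the main rule, so neither could have called a host. The lowest adjusted p ran from 0.35 with a mean of at least 50 to 0.97 with the scaled score. SNHG12 changed sign with the length and GC trend removed, to 0.019 from -0.21, and was at -0.09 with the longest transcript. The median of the hosts was -0.20 with the trend removed and -0.32 with the longest transcript. No paired analysis was possible because the table holds no values per library, and leaving out a replicate was not possible for the same reason. With 5 libraries, a host at a standard error of 0.37 needed a log2 change of 1.34 to be called.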
